A study of Bos taurus with 24 samples.

Results

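The solute carriers are among the largest superfamilies of membrane transporters, and 180 of the 11937 genes in the deposited count table belong to it by symbol. Members are the rows whose gene name is SLC followed by a family number, a letter or letters and a member number, apart from 5 transporters of amino acids and lactate (SLC16A1, SLC16A3, SLC7A5, SLC7A11 and SLC3A2). They hold 178 distinct symbols, since SLC6A9 and SLC11A2 each stand on 2 rows, and all 180 are annotated as protein coding. They fall into 43 families and were sorted into 11 substrate classes by family number. A class is named for a usual substrate of its families, and single members can have another or an unknown one. The classes hold 38 mitochondrial carriers, 29 carriers of amino acids, 25 of metals, 25 of inorganic ions, 21 of nucleotide sugars, 11 of sugars and polyols, 11 of organic anions and cations, 10 of vitamins, nucleosides and choline, 4 of phosphate and vesicular anions, 4 of lipids and 2 others.

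The cells were wild-type bovine satellite cells of the longissimus dorsi, the resident precursors from which muscle fibres are repaired. They were a mix of 3 primary lines at passage 3, grown alone (monoculture) or with passage 10 fibroblasts in co-culture plates with 0.4 µm pores (coculture), all in high glucose medium with 20% fetal bovine serum. Cells were taken on day 5 of this proliferation phase, and 24 h and 72 h after a change to 10% horse serum, which starts differentiation. Each of the 6 groups had 4 libraries of total RNA. Nothing in the labels says that the 4 libraries of a group are separate cultures. Each p-value rests only on the spread among libraries within groups, estimated over all 6 groups together, and that spread may be technical.

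A solute carrier moves a nutrient, ion, metal, vitamin or metabolite across the plasma membrane or the membrane of an organelle, down its own gradient or coupled to a gradient of sodium, protons or another solute. Families are defined by sequence and usually share a kind of substrate: SLC2 members carry sugars, SLC7 and SLC38 members amino acids, SLC30 and SLC39 members zinc, mostly in opposite directions, SLC25 members metabolites across the inner mitochondrial membrane. Muscle cells depend on them for glucose, amino acids, taurine, calcium exchange and exchange of ATP between mitochondria and cytosol.

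Library totals ran from 11.5 to 34.96 M counts, and the members together took 0.760% to 0.889% of them. Every listed gene had at least 6 counts in every library, so a transporter silent in any of them is not among the members. Of 12 satellite cell and myogenic markers 4 were listed, and the defining markers PAX7, MYF5, MYOD1 and MYOG were not; of 12 fibroblast markers 8 were listed, and their summed level went from 52923 to 57066 CPM (counts per 1 M counts of a library, after TMM scaling) in monoculture and 62883 to 64202 CPM in coculture in proliferation to 119808 to 137672 and 113523 to 117498 CPM at 72 h. The collagen genes COL1A1, COL1A2 and COL3A1 make up most of that sum, and other listed fibroblast markers had other courses: from proliferation to 72 h the monoculture mean went from 300 to 218 CPM for PDGFRB, from 66.2 to 46.3 CPM for PDGFRA and from 999 to 859 CPM for LUM, and the coculture mean of PDGFRA from 60.1 to 121 CPM. At 72 h the 4 listed myogenic markers summed to 381 to 415 CPM in monoculture and 220.3 to 234 CPM in coculture; 2 of them, DES (log2 difference -0.78) and ITGA7 (-2.01), were called lower in coculture and 2, PAX3 (0.20) and SDC4 (0.16), higher. The 5 listed of 6 smooth muscle and pericyte markers summed to 10218 to 12272 and 6090 to 7149 CPM. The part of these markers in the results was not tested. In bulk RNA, fewer cells of a type and less RNA per cell cannot be told apart. All proliferation and monoculture libraries carry lane 6 in their names, coculture at 24 h has 2 libraries in each of lanes 6 and 7, and coculture at 72 h has only lane 7, so lane and culture cannot be told apart within 72 h. A number code in the library descriptions, whose meaning is not given, is 1 for monoculture at 24 h and 72 h and 2 for all other libraries. Nuclear ribosomal RNA took the largest shares of counts in 4 libraries: 4.07% in replicate 2 of coculture at 24 h, 2.24% in replicate 1 of coculture at 72 h, and 2.14% and 1.76% in replicates 3 and 4 of monoculture at 72 h. In proliferation its share separated the cultures without overlap, at 1.23% to 1.40% in monoculture and 0.742% to 1.07% in coculture. Mitochondrial genes took a larger share in each monoculture library than in each coculture library of the same time: 2.00% to 2.10% against 1.60% to 1.70% in proliferation, 2.81% to 3.26% against 2.14% to 2.36% at 24 h, and 2.19% to 2.55% against 1.76% to 1.91% at 72 h. The part of these shares in the differences between cultures was not tested.

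In proliferation 65 members were higher and 47 lower in coculture, at an adjusted p under 0.05 in edgeR's quasi-likelihood test adjusted over all genes; over all 11937 genes 30.3% were called higher, 28.7% lower and 59.0% either way. At 24 h the counts were 19 higher and 30 lower, beside 11.5% and 12.2% of all genes (23.8% either way). At 72 h 41 members were higher and 62 lower, beside 25.1% and 25.4% of all genes (50.5% either way). As shares of the members these are 36.1% and 26.1%, 10.6% and 16.7%, and 22.8% and 34.4%, so the members called higher in proliferation and those called lower at 72 h were the counts that stood furthest above the share over all genes. The 4 libraries of one culture lay wholly above or below those of the other for 98 members in proliferation, 54 at 24 h and 87 at 72 h, beside 53.0%, 24.4% and 42.0% of all genes. Most differences were small: 3 called members differed at least 2-fold in proliferation (SLC1A1, SLC39A8 and SLC26A10, all under 5 CPM), 0 at 24 h and 6 at 72 h (SLC2A1, SLC39A14, SLC16A7, SLC25A36, SLC6A6 and SLC18B1). Over all 11937 genes 77 were called and at least 2-fold in proliferation, 58 at 24 h and 344 at 72 h. Over the 3 times 156 members were called at least once and 24 never (13.3%, beside 19.9% of all genes). Counts by class and family below are to be read beside the shares of all genes given here for the same time, and no class or family was tested as a set.

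The split into higher and lower depends on how libraries are scaled. Scaling to library size alone, in place of the TMM factors, moved the median log2 difference of all genes from 0.004 to -0.065 in proliferation, from -0.0027 to -0.0064 at 24 h, and from -0.0014 to 0.13 at 72 h. With it 52 members were higher and 57 lower in proliferation, and 66 higher and 35 lower at 72 h. The shares of all genes given above hold for TMM scaling without a covariate. They are no measure for counts of members under other settings, here or below. Directions below are relative to the bulk of the genes, as TMM sets it. With lane as a covariate, which the 4 coculture libraries at 24 h alone inform, 20 members were higher and 35 lower at 72 h. In that 24 h group lane 6 holds only replicate 1 and replicate 2, the library with 4.07% ribosomal RNA. The fitted lane effect, here and below, therefore also carries the difference of replicate 2 from the other replicates, and these cannot be separated.

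**Figure D1:**
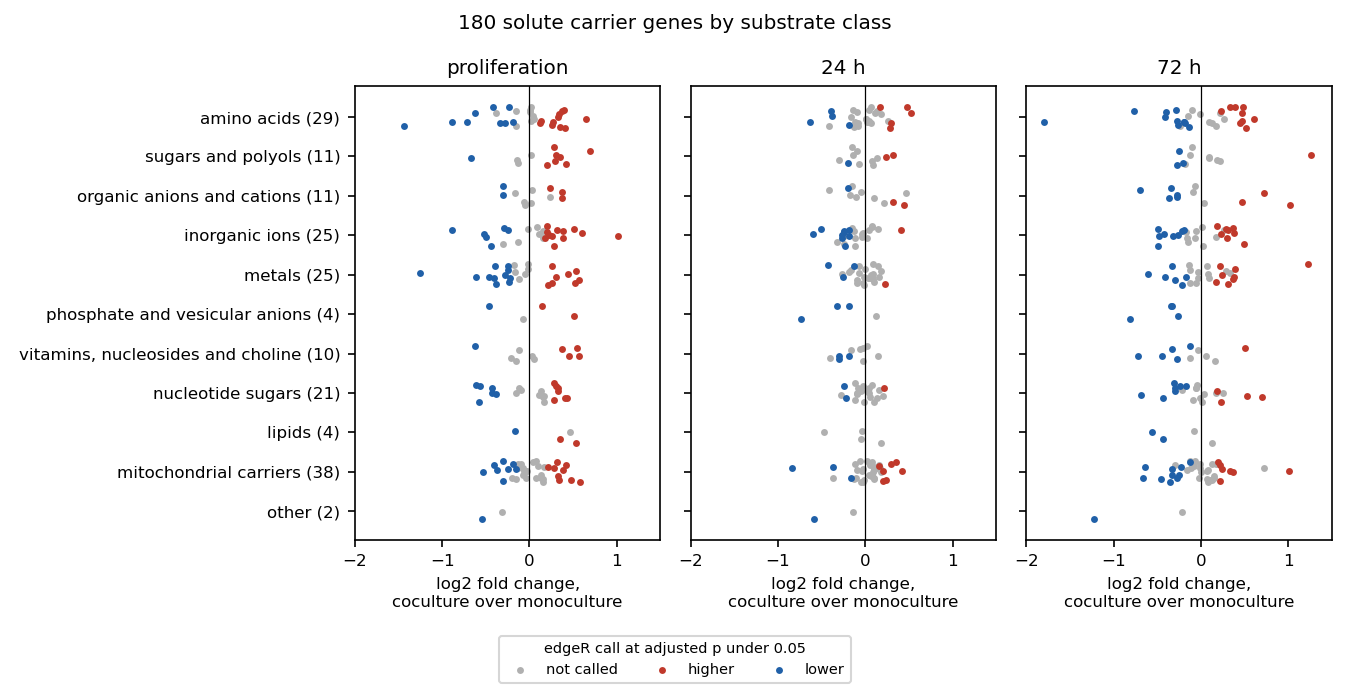
Each point is 1 of the 180 members, placed by its log2 ratio of coculture to monoculture (x axis) and its substrate class (y axis, number of members in brackets, points spread vertically within a class), in 1 panel per time, coloured by its edgeR call. The 65 members called higher in proliferation outnumber the 47 called lower, at 72 h the 62 called lower outnumber the 41 called higher, and the widest spread is at 72 h, from SLC6A6 at -1.79 to SLC2A1 at 1.25.

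Amino acid carriers divided in both directions at every time: 11 higher and 9 lower in proliferation, 5 and 4 at 24 h, and 9 and 11 at 72 h, of 29. The largest difference among all members was that of SLC6A6, the transporter that takes up taurine with sodium and chloride (ENSBTAG00000011088, chromosome 22, 57782877 to 57869062 in the deposited table, whose genome build no source used here names). At 72 h its level was 32.3, 38, 40.7 and 33.8 CPM in the monoculture libraries and 12.7, 8.75, 11.3 and 9.10 CPM in the coculture libraries. Each coculture library lay far below each monoculture library. The log2 difference was -1.79 ± 0.115 (SE), a 3.47-fold lower level (edgeR adjusted p = 8.6e-14). In proliferation the libraries had 1.86, 2.44, 2.48 and 2.50 CPM in monoculture and 1.26, 0.754, 1.63 and 1.97 CPM in coculture, which overlap, and the log2 difference was -0.89 ± 0.234 (edgeR adjusted p = 0.00166), or -0.53 without coculture replicate 2, where the call was lost (edgeR adjusted p = 0.0507). At 24 h it was -0.64 ± 0.228 (edgeR adjusted p = 0.0402), a call lost with lane as a covariate (-0.50, edgeR adjusted p = 0.247). It was also lost when monoculture replicate 1, 2 or 3 or coculture replicate 1, 3 or 4 was left out (-0.67 to -0.52, edgeR adjusted p = 0.0623 to 0.122).

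SLC6A6 was lower in coculture while it rose with differentiation in both cultures. From 24 h to 72 h it rose by 3.95 ± 0.144 on the log2 scale in monoculture, from 2.33 ± 0.144 to 36.2 ± 3.82 CPM (SD, n = 4), and by 2.79 ± 0.176 in coculture, from 1.49 ± 0.344 to 10.5 ± 1.88 CPM. These rises differed by -1.16 ± 0.264 (edgeR's interaction contrast, adjusted p = 0.00164). The glutamate and cysteine transporter SLC1A1 rose over the same interval too, by 3.90 ± 0.171 in monoculture and 4.07 ± 0.183 in coculture. It reached 14.2, 14.7, 12.6 and 12.6 CPM in monoculture and 9.60, 12.5, 11.4 and 12.4 CPM in coculture. All coculture libraries lay below all monoculture ones, but the log2 difference of -0.24 ± 0.117 was not called (edgeR adjusted p = 0.0903). In proliferation, near the bottom of the measured range, SLC1A1 was lower in coculture (log2 difference -1.44 ± 0.281, edgeR adjusted p = 6.81e-05), at 0.360, 0.350, 0.816 and 0.596 CPM against 1.37, 1.35, 1.16 and 1.32.

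Among carriers of neutral amino acids, SLC38A2, a sodium-coupled importer whose RNA is known to rise when amino acids are scarce, had 505, 541, 457 and 479 CPM in monoculture and 309, 303, 305 and 292 CPM in coculture in proliferation. The 2 groups were far apart, with a log2 difference of -0.71 ± 0.0608 (edgeR adjusted p = 8.25e-11). At 24 h the difference was 0.02 ± 0.0605, and the change of 0.74 ± 0.0856 between these times passed edgeR's interaction contrast (adjusted p = 6.28e-08). Monoculture fell by 0.34 and coculture rose by 0.39 over that interval, both called, so that the cultures met at 390.2 ± 16.2 and 397 ± 3.68 CPM (SD, n = 4). At 72 h the difference was 0.09 ± 0.0606 and not called, but it was called with library sizes alone (0.23) and without the 4 libraries rich in ribosomal RNA (0.20). Monoculture 72 h replicate 3, at 396 CPM, stood apart from the other 3, at 297 to 313 CPM, and without that library alone the difference was called too (0.20, edgeR adjusted p = 0.00035).

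SLC36A4, a high-affinity amino acid transporter of the proton-coupled family, turned from lower to higher. It had 15.6, 16.4, 16.5 and 15.3 CPM in monoculture and 10.7, 9.75, 11.8 and 9.60 CPM in coculture in proliferation, then 6.09, 8.65, 7.05 and 6.65 and 10.9, 8.90, 9.97 and 11.5 CPM at 24 h. The groups did not overlap at either time and stood in opposite order. The log2 difference moved from -0.63 ± 0.0979 to 0.52 ± 0.108, a change of 1.15 ± 0.146 (edgeR adjusted p = 2.47e-07). Monoculture fell by 1.15 ± 0.103 from proliferation to 24 h, while coculture changed by 0.0022 ± 0.103. Its relative SLC36A1, which exports amino acids from lysosomes with protons, was higher at 72 h only by 0.61 ± 0.101 (edgeR adjusted p = 1.03e-05), at 12.3, 15.7, 16 and 14.9 CPM against 9.62, 11.5, 8.69 and 8.72. With lane as a covariate both 72 h calls were lost (SLC36A1 0.40, edgeR adjusted p = 0.0921; SLC36A4 0.35, edgeR adjusted p = 0.160).

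Of the carriers of cationic amino acids, SLC7A1, the main importer of arginine and lysine in many cells, was higher in coculture at all 3 times, by 0.41 ± 0.0558, 0.28 ± 0.0537 and 0.52 ± 0.0559 on the log2 scale. At 72 h it had 49.5, 55.2, 50.9 and 51.9 CPM in coculture and 37.2, 35.5, 34.7 and 37.8 CPM in monoculture, without overlap. SLC7A2, another arginine transporter, went from -0.24 ± 0.0802 in proliferation to 0.48 ± 0.0868 at 24 h and 0.33 ± 0.0927 at 72 h, all called. SLC66A1, which exports lysine and arginine from lysosomes, moved the other way: 0.37 ± 0.0693, -0.39 ± 0.0643 and -0.77 ± 0.0645. Its coculture level stayed between 15.2 and 16.2 CPM as a group mean over the 3 times, and its monoculture mean went from 11.9 to 21.2 to 25.7 CPM. The SLC66A1 gene, which spans 16.5 kb, shares 360 bases with AKR7A2, and the strand of the reads is not given, so reads within the shared stretch cannot be told apart.

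Other members of the amino acid class also differed between cultures. SLC1A5, the glutamine and neutral amino acid exchanger, was higher in proliferation (0.39 ± 0.0495, 293 ± 8.42 CPM against 223 ± 4.16, SD, n = 4) and was not called at the later times (at 72 h, -0.10, it was called without monoculture replicate 1 or 2, at -0.13 each). SLC43A2, an exporter of large neutral amino acids, was higher in proliferation by 0.65 ± 0.160 and differed by 0.01 ± 0.143 at 24 h. SLC38A1, which imports glutamine with sodium, went from -0.28 ± 0.0888 in proliferation to 0.29 ± 0.0901 at 24 h, where the call was lost with lane as a covariate (0.28, edgeR adjusted p = 0.0849). Monoculture replicate 1, at 27.6 CPM with the nearest library at 41.9 CPM, stood apart at 24 h, and without it the difference was 0.17 and not called (edgeR adjusted p = 0.0850). SLC38A9, the lysosomal arginine sensor of the mTORC1 pathway, went from -0.41 ± 0.0834 in proliferation to 0.48 ± 0.0851 at 72 h, both called. The lysosomal glutamine transporter SLC38A7 was lower at 24 h (-0.39 ± 0.0712). SLC6A2, the noradrenaline transporter, is in this class by its family number only. It rose with time in both cultures and was higher in coculture at 72 h by 0.39 ± 0.0519, at 63.4, 69, 66.3 and 69.1 CPM against 47.5, 51.5, 56.1 and 49.4.

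**Figure D2:**
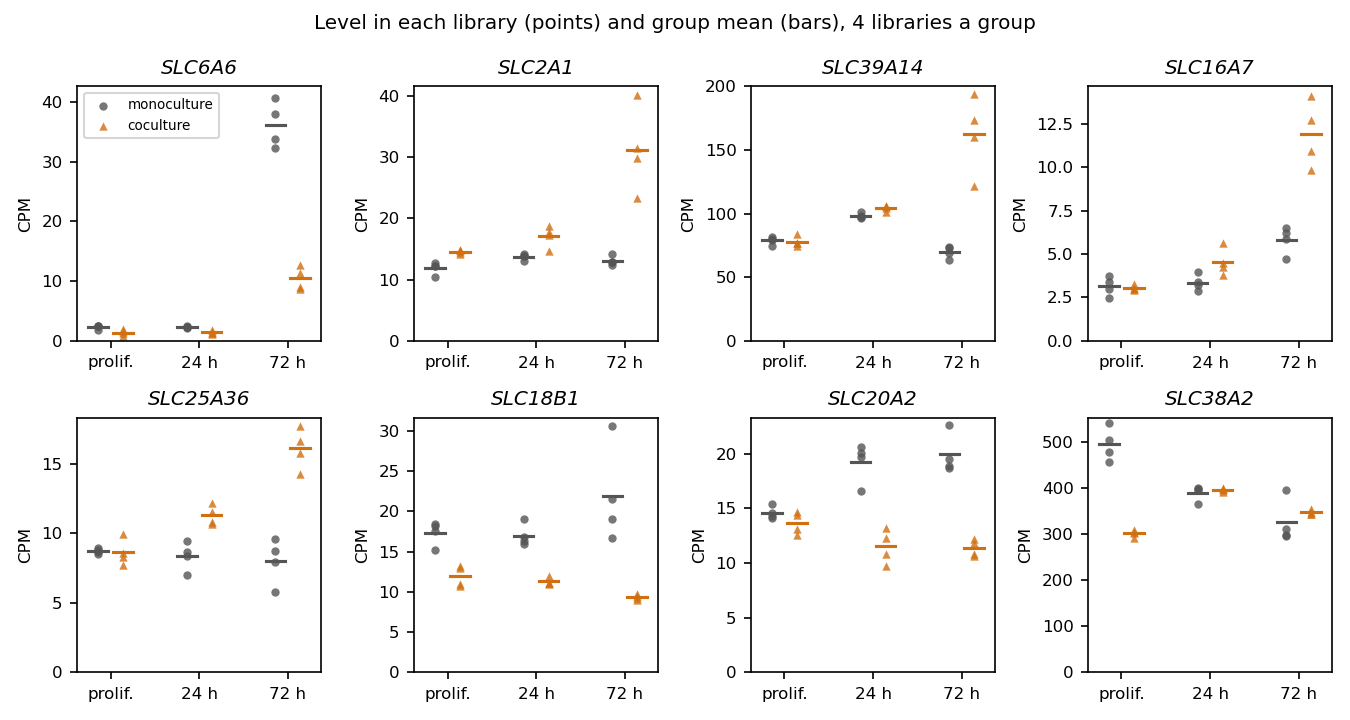
Each panel is 1 member, with CPM per library on the y axis (linear, from 0) and the 3 times on the x axis; points are the 4 libraries of a group and bars their mean. SLC6A6 rises to 32.3 to 40.7 CPM in monoculture at 72 h and to 8.75 to 12.7 in coculture, while SLC2A1, SLC39A14, SLC16A7 and SLC25A36 have all 4 coculture libraries above all 4 monoculture libraries at 72 h.

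Among the sugar carriers 7 of 11 were higher in proliferation and 1 lower; at 24 h 2 were higher and 1 lower, and at 72 h 1 higher and 3 lower. With library sizes alone the proliferation counts were 3 higher and 2 lower, and those at 72 h 4 higher and 0 lower. SLC2A1, the widespread glucose transporter GLUT1 (ENSBTAG00000009617, chromosome 3, 103309104 to 103337308), had 12.8, 12.5, 14.2 and 12.9 CPM in monoculture and 23.4, 40.1, 31.4 and 29.9 CPM in coculture at 72 h. The coculture libraries were all higher, and they spread more widely. The log2 difference was 1.25 ± 0.103, a 2.39-fold higher level (edgeR adjusted p = 1.91e-11), 1.40 with lane as a covariate and 1.41 without the 4 libraries rich in ribosomal RNA, among them coculture replicate 1, the lowest of its group. It was also higher in proliferation (0.30 ± 0.111, edgeR adjusted p = 0.0213) and at 24 h (0.32 ± 0.107, edgeR adjusted p = 0.0293); the first call was lost with library sizes alone (0.23), without monoculture replicate 4 (0.24, edgeR adjusted p = 0.0836) and without coculture replicate 2 (0.29, edgeR adjusted p = 0.0533). The 24 h call was lost when monoculture replicate 3 or 4 or coculture replicate 1, 2 or 4 was left out (0.27 to 0.32, edgeR adjusted p = 0.0536 to 0.0977). The difference grew from 24 h to 72 h by 0.94 ± 0.149 (edgeR adjusted p = 2.09e-05), as coculture rose by 0.86 ± 0.0980 and monoculture changed by -0.07 ± 0.112.

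Other sugar carriers had other courses. SLC2A3, the high-affinity glucose transporter GLUT3, rose with time in both cultures and was higher in coculture in proliferation (0.36 ± 0.0628) and at 24 h (0.23 ± 0.0619), with 0.09 ± 0.0614 at 72 h, not called. SLC2A8, an intracellular sugar transporter, had 11, 10.6, 11.3 and 11.6 CPM in coculture and 6.58, 7.53, 7.28 and 5.98 CPM in monoculture in proliferation. This was the largest upward difference in proliferation among members of at least 5 CPM whose groups did not overlap, 0.69 ± 0.0817 (edgeR adjusted p = 2.91e-08), and at 72 h the order was the reverse (-0.25 ± 0.0794, edgeR adjusted p = 0.00971). SLC2A13, which carries myo-inositol with protons, was lower in proliferation, with 13.9, 12.3, 16.2 and 15.5 CPM in coculture and 22.6, 21.6, 22.3 and 23.9 in monoculture (-0.67 ± 0.0826). By 24 h monoculture had fallen by 1.06 ± 0.0856 and the cultures differed by 0.13 ± 0.0922.

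SLC16A7, the monocarboxylate transporter MCT2, which carries lactate and pyruvate with protons (ENSBTAG00000021287, chromosome 5, 53698084 to 53892931), rose in both cultures after 24 h. It had 9.83, 14.1, 11 and 12.7 CPM in coculture at 72 h and 6.19, 6.49, 5.86 and 4.73 CPM in monoculture, with no overlap, a log2 difference of 1.02 ± 0.126 (edgeR adjusted p = 6.59e-08). In proliferation the difference was -0.06 ± 0.164, and the change between these times was 1.08 ± 0.207 (edgeR adjusted p = 5e-05). The other 3 listed members of the family were all lower at 72 h. Of the transporters that the rule leaves out, the lactate carrier SLC16A3 was higher in coculture at all 3 times, by 1.87, 2.13 and 2.53 on the log2 scale, and SLC16A1 was lower in proliferation (-0.35) and not called later. SLC7A5 was higher at all 3 times (0.46, 0.22 and 0.14), its partner chain SLC3A2 higher in proliferation (0.37) and lower at 72 h (-0.16), and SLC7A11 lower in proliferation (-0.35) and higher at 72 h (0.55).

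The zinc carriers of family SLC30, most of which move zinc out of the cytosol, lay on one side in proliferation. All 6 listed members were lower in coculture in proliferation, 1 was higher at 24 h and 4 were higher at 72 h. The median log2 difference over the 6 was -0.33 in proliferation, 0.11 at 24 h and 0.23 at 72 h, beside 0.004, -0.0027 and -0.0014 over all genes. The 6 genes had a median span on the chromosome of 39.7 kb, beside 29.5 kb over all members. Of the 90 members longer than 29.5 kb, 15 were higher and 37 lower in proliferation, and 30 and 22 at 72 h. The part of span in the SLC30 differences was not tested. SLC30A9, known for zinc in mitochondria, had 80.7, 84.9, 79.3 and 79.3 CPM in monoculture and 61.2, 61.1, 63.2 and 62.4 CPM in coculture in proliferation, and 59.4, 63.5, 54.5 and 59.2 and 72.3, 71.1, 73.7 and 76.3 CPM at 72 h. The groups did not overlap at either time and their order had turned. The differences were -0.39 ± 0.0440 and 0.31 ± 0.0446. SLC30A1, the exporter in the plasma membrane, went from -0.25 ± 0.0606 to 0.22 ± 0.0602. In proliferation it had 44.7, 41.7, 47.7 and 48.5 CPM in coculture and 55.9, 56.6, 54.3 and 49.3 CPM in monoculture, and at 72 h 65.6, 54.8, 60.7 and 59.1 CPM and 50.7, 55.2, 47.6 and 53.2 CPM, where coculture replicate 2 fell within the range of monoculture. The secretory pathway members SLC30A5 (-0.22 in proliferation and -0.04 at 72 h) and SLC30A6 (-0.40 and 0.09) were called in proliferation only, and SLC30A4 (-0.46 and 0.37) and SLC30A7 (-0.28 and 0.24) at both times. The SLC30A4 gene shares 4642 bases with C10H15orf48.

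The change of the coculture difference from proliferation was called, and upward, for all 6 SLC30 members at 24 h, and for all 6 at 72 h. Over all genes 24.3% and 31.3% were called upward in these contrasts. Both contrasts subtract the same proliferation difference, which was downward for all 6, so they are not independent of it or of each other. The members other than SLC30A1 were chosen for mention after their values were seen. With lane as a covariate 5 of the 6 were called at 72 h against proliferation, and 2 instead of 4 were called higher within 72 h; the SLC30A1 call there was among those lost (0.10, edgeR adjusted p = 0.508). Without the 4 libraries rich in ribosomal RNA 2 were called higher within 72 h, and with library sizes alone 5. The SLC39 family, which moves zinc and other metals into the cytosol, was called in both directions. Of its 11 members 6 were higher and 4 lower in proliferation, 0 and 1 at 24 h, and 2 and 4 at 72 h (4 and 2 with library sizes alone).

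SLC39A14, which imports zinc, iron and manganese (ENSBTAG00000019225, chromosome 8, 69663882 to 69731751), had the next largest upward difference at 72 h after SLC2A1. Its coculture libraries had 122, 194, 174 and 160.3 CPM and its monoculture libraries 63.6, 72.8, 73.5 and 68.8 CPM. All coculture libraries were higher, with a wide spread among them and the lowest in replicate 1, one of the libraries rich in ribosomal RNA. The log2 difference was 1.22 ± 0.0782, a 2.33-fold higher level (edgeR adjusted p = 7.74e-14), and 1.37 without the 4 libraries richest in it. In proliferation and at 24 h it differed by -0.02 ± 0.0784 and 0.08 ± 0.0769, neither called. From 24 h to 72 h coculture rose by 0.64 ± 0.0761 and monoculture fell by 0.50 ± 0.0786, a change of the difference of 1.14 ± 0.109 (edgeR adjusted p = 4.29e-09).

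SLC39A10, a zinc importer of the plasma membrane, was lower in proliferation, with 18.3, 19.8, 18 and 19.1 CPM in coculture and 32.1, 29.9, 26.7 and 27.6 CPM in monoculture (-0.62 ± 0.0663). It then fell in monoculture by 1.00 ± 0.0687 to the coculture level at 24 h. SLC39A5, another zinc importer, was higher in proliferation (0.44 ± 0.122) and lower at 72 h (-0.60 ± 0.107); its gene overlaps NABP2 and ANKRD52. SLC39A8, the closest relative of SLC39A14, was lower in proliferation at a level near the bottom of the measured range, 0.360, 0.781, 0.735 and 0.775 CPM in coculture against 1.74, 1.60, 1.64 and 1.62 CPM in monoculture (-1.26 ± 0.250, edgeR adjusted p = 8.45e-05). SLC39A11 and SLC39A3 were higher in proliferation by 0.53 ± 0.125 and 0.52 ± 0.0929 and were not called later. SLC49A3 had 17.1, 18.4, 18.4 and 21.2 CPM in coculture and 12.3, 13.8, 12.5 and 12.2 CPM in monoculture in proliferation, without overlap (0.56 ± 0.0688, edgeR adjusted p = 5.37e-08). At 72 h the groups stood apart in the opposite order (-0.29 ± 0.0664), after a rise by 0.85 ± 0.0674 in monoculture from proliferation to 24 h. The copper transporter SLC31A1 was called at no time, and SLC31A2 was lower at 24 h (-0.43 ± 0.0938; -0.34 within lane 6, edgeR adjusted p = 0.0578). Ferroportin, SLC40A1, which exports iron, was higher at 72 h by 0.39 ± 0.104.

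**Figure D3:**
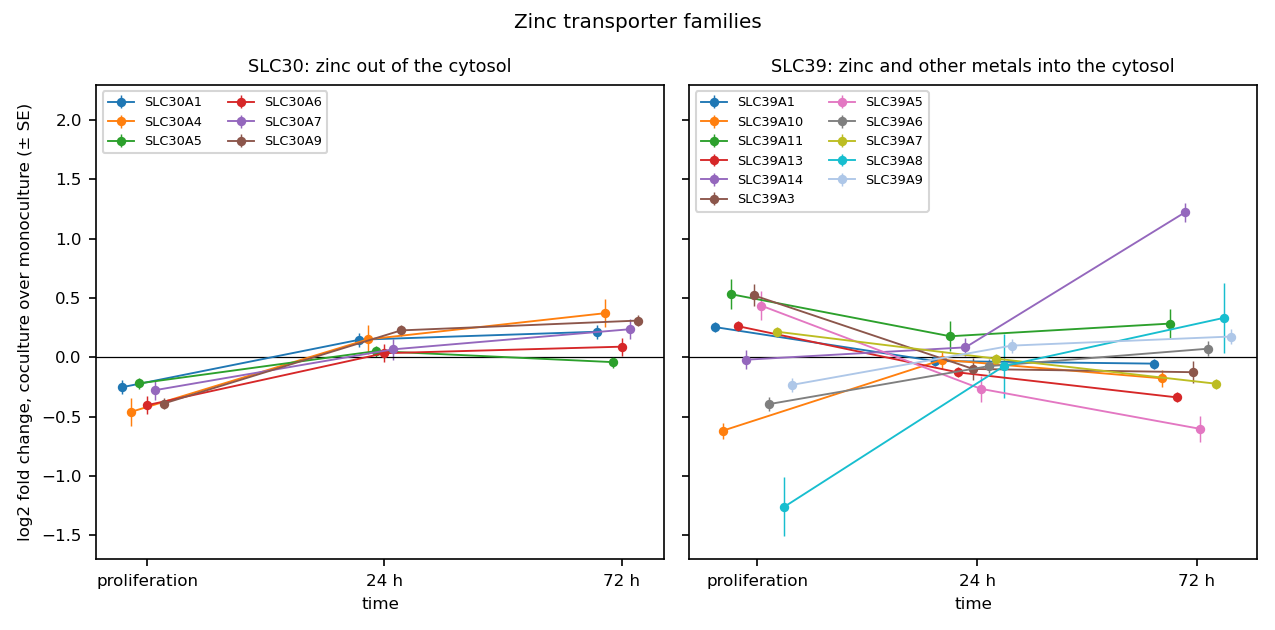
Points give the log2 ratio of coculture to monoculture and its SE (y axis) of each listed zinc transporter at the 3 times (x axis), family SLC30 on the left and SLC39 on the right, with lines joining 1 gene. All 6 SLC30 members lie below 0 in proliferation, between -0.46 and -0.22, and above those values at 24 h and 72 h; SLC39 members lie on both sides, and SLC39A14 stands alone at 1.22 at 72 h.

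Both sodium-phosphate importers of family SLC20 were lower in coculture at 24 h and 72 h. SLC20A2 had 10.8, 9.69, 12.3 and 13.2 CPM in coculture and 16.6, 19.7, 20.1 and 20.6 CPM in monoculture at 24 h, and 11.8, 10.6, 12.2 and 10.9 and 18.9, 18.7, 22.7 and 19.5 CPM at 72 h. No library of one group reached the other at either time. The log2 differences were -0.74 ± 0.0861 (edgeR adjusted p = 1.4e-07) and -0.81 ± 0.0875 (edgeR adjusted p = 5.02e-09), after -0.08 ± 0.0865 in proliferation, where the groups overlapped. At 24 h SLC20A2 had the largest downward difference among members of at least 5 CPM whose groups did not overlap. Its gene, which spans 79.1 kb, shares 6966 bases with VDAC3, a channel gene of the outer mitochondrial membrane, and reads within that stretch cannot be told apart. SLC20A1 moved less: 0.14 ± 0.0459, -0.18 ± 0.0464 and -0.34 ± 0.0458, the first lost with library sizes alone (0.07) and the second with lane as a covariate (-0.13, edgeR adjusted p = 0.117). The whole span of the SLC20A1 gene, 13.4 kb, is shared with ERH, and reads that fall on both genes cannot be told apart. All 4 members of the class of phosphate and vesicular anions were lower at 72 h, under each scaling, with lane as a covariate and without the 4 libraries rich in ribosomal RNA.

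Within that class SLC17A5, which exports sialic acid from lysosomes, was lower at all 3 times (-0.46 ± 0.0835, -0.32 ± 0.0875 and -0.34 ± 0.0820). Outside that class, SLC18B1, a vesicular polyamine transporter (ENSBTAG00000015242, chromosome 9, 70927238 to 70965960), was lower at all 3 times too. Its coculture libraries had 9.01, 9.27, 9.79 and 9.48 CPM at 72 h and its monoculture libraries 21.5, 19, 30.6 and 16.7 CPM, with replicate 3, rich in ribosomal RNA, the highest. The coculture values lay close together and all below monoculture. The log2 differences were -0.54 ± 0.117, -0.59 ± 0.119 and -1.23 ± 0.121 (edgeR adjusted p = 7.89e-10), and -1.09 at 72 h without the 4 libraries rich in ribosomal RNA. The change from 24 h to 72 h was -0.64 ± 0.170 (edgeR adjusted p = 0.00628). Members called in 1 direction at all 3 times were few: SLC2A1 and SLC7A1 higher, and SLC17A5, SLC18B1, SLC35A5 and SLC6A6 lower, which is 1.11% and 2.22% of the members beside 2.02% and 2.05% of all genes.

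Of 25 carriers of inorganic ions 12 were higher and 6 lower in proliferation, 1 higher and 9 lower at 24 h, and 8 and 8 at 72 h. SLC12A2, which brings sodium, potassium and chloride into the cell, was the 1 higher at 24 h, with 22.3, 29.1, 27.3 and 26.7 CPM in coculture and 20.0, 19.7, 18.8 and 21.2 CPM in monoculture, no overlap, and a log2 difference of 0.41 ± 0.0649 (edgeR adjusted p = 1.83e-05). In proliferation it had been lower (-0.25 ± 0.0622), and at 72 h it was higher (0.31 ± 0.0633), a call lost with lane as a covariate (0.24, edgeR adjusted p = 0.0993). SLC9A5, a sodium-proton exchanger, went the other way. It had 12.7, 11.5, 10.7 and 9.78 CPM in coculture and 7.95, 8.68, 7.02 and 7.89 CPM in monoculture in proliferation, then 19, 19, 22.3 and 19.1 and 26.2, 26, 33.4 and 26.7 CPM at 24 h. The groups stood apart in opposite order, at 0.51 ± 0.103 and -0.50 ± 0.0820, a change of -1.01 ± 0.132 (edgeR adjusted p = 3.54e-07).

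Among calcium exchangers SLC8B1, which takes calcium out of mitochondria, was higher in proliferation by 0.60 ± 0.0780 and at 72 h by 0.37 ± 0.0691, and differed by -0.02 ± 0.0710 at 24 h. SLC8A1, the sodium-calcium exchanger of the plasma membrane, was called at no time (at 72 h only with library sizes alone, 0.14), with 79.1 ± 2.60 CPM in coculture and 78.3 ± 5.32 CPM in monoculture at 72 h (SD, n = 4). SLC24A5, a potassium-dependent sodium-calcium exchanger, had 6.58, 6.63, 6.01 and 7.94 CPM in monoculture and 3.84, 3.74, 3.35 and 3.70 CPM in coculture in proliferation. That was the largest downward difference in proliferation among members of at least 5 CPM whose groups did not overlap (-0.89 ± 0.154, edgeR adjusted p = 1.42e-05). At 24 h the difference was 0.05 ± 0.169, after a fall by 0.92 in monoculture; the gene overlaps MYEF2. The sulfate and anion carrier SLC26A11 was lower at 24 h (-0.60 ± 0.125), and the magnesium carrier SLC41A3, whose gene overlaps ZXDC, at 72 h (-0.49 ± 0.0794).

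Of 10 carriers of vitamins, nucleosides and choline 4 were higher and 1 lower in proliferation, 0 and 3 at 24 h, and 1 and 5 at 72 h. SLC29A1, which equilibrates nucleosides such as adenosine across the plasma membrane, had 198, 209, 196 and 203 CPM in coculture and 140.2, 139, 136 and 138 CPM in monoculture in proliferation, and 185, 215, 201 and 206 and 146, 144, 140.4 and 141 CPM at 72 h. At both times all coculture libraries were higher, by 0.55 ± 0.0469 and 0.50 ± 0.0470 (edgeR adjusted p = 9.34e-11 and 3.27e-10). At 24 h the difference was -0.03 ± 0.0465: monoculture rose by 0.60 and then fell by 0.55, while coculture changed by 0.03 and -0.02, neither called. Its relative SLC29A2 was lower at 24 h (-0.30 ± 0.0693) and at 72 h (-0.72 ± 0.0732), with 12, 11.2, 12.5 and 13.6 CPM in coculture and 20.5, 19.1, 23 and 18.8 CPM in monoculture at 72 h. SLC29A3, of lysosomes, was higher in proliferation by 0.57 ± 0.0821 and was not called later. The choline transporter SLC44A1 had 312, 318, 302 and 305 CPM in monoculture and 199, 193, 201 and 211 CPM in coculture in proliferation, without overlap (-0.62 ± 0.0463, edgeR adjusted p = 6.36e-12). By 24 h the cultures had 213 ± 11.8 and 216 ± 3.63 CPM (SD, n = 4).

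Among the smaller classes, 2 of 4 members of the lipid class were higher and 1 lower in proliferation, 0 of them were called at 24 h and 2 were lower at 72 h. The 1 lower in proliferation was the member of family SLC33, and the other 3 are of family SLC27. SLC27A1, which takes up fatty acids, was higher in proliferation by 0.54 ± 0.0993, at 10.7, 12.4, 13.4 and 13 CPM in coculture and 8.57, 8.43, 7.86 and 9.07 CPM in monoculture, without overlap. Of 11 carriers of organic anions and cations 3 were higher and 2 lower in proliferation, 2 and 1 at 24 h, and 3 and 5 at 72 h. SLC22A17, a receptor for the iron-binding protein lipocalin 2, had a change of difference from 24 h to 72 h that was called, -0.47 ± 0.133, a call lost with library sizes alone (-0.33, edgeR adjusted p = 0.0550).

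The 21 members of family SLC35 make up the nucleotide sugar class by family number. Some of them bring activated sugars into the Golgi apparatus and endoplasmic reticulum, and others have other or unknown substrates. The family held 7 higher and 6 lower in proliferation, 1 and 2 at 24 h, and 4 and 7 at 72 h. SLC35A3, which carries UDP-N-acetylglucosamine, was lower in proliferation (-0.61 ± 0.0678), as was SLC35F5 (-0.57 ± 0.0713); neither was called at 24 h or 72 h. SLC35A5 had 49.1, 48.2, 44.6 and 46.4 CPM in monoculture and 31.9, 29.8, 32.8 and 33.4 CPM in coculture in proliferation and stayed lower, without overlap, at 24 h (-0.25 ± 0.0513) and 72 h (-0.24 ± 0.0518); it overlaps ATG3 and CCDC80. SLC35C1, which carries GDP-fucose, was higher in proliferation by 0.40 ± 0.0750. SLC35B4, which carries UDP-xylose and UDP-N-acetylglucosamine, was higher at 72 h by 0.53 ± 0.124, and SLC35E4, with no known substrate, was lower (-0.69 ± 0.152); both calls were lost with lane as a covariate (0.33, edgeR adjusted p = 0.226, and -0.57, edgeR adjusted p = 0.118).

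Of the 38 mitochondrial carriers of family SLC25, 9 were higher and 8 lower in proliferation, 7 and 3 at 24 h, and 7 and 10 at 72 h. With library sizes alone the counts at 72 h were 17 higher and 6 lower. SLC25A36, which carries pyrimidine nucleotides (ENSBTAG00000015310, chromosome 1, 128010259 to 128042610), was not called in proliferation (-0.03 ± 0.112). It had 10.6, 12.2, 11.5 and 10.8 CPM in coculture and 7.04, 8.69, 8.37 and 9.48 CPM in monoculture at 24 h, and 14.3, 17.7, 15.8 and 16.6 and 7.98, 9.59, 5.79 and 8.72 CPM at 72 h. Coculture was higher at both times without overlap, by 0.43 ± 0.109 and 1.00 ± 0.107 (edgeR adjusted p = 0.00436 and 4.03e-09), and the growth of 0.58 ± 0.153 between them was called (edgeR adjusted p = 0.00602). SLC25A33, the other pyrimidine nucleotide carrier, went the other way at 72 h, with 3.73, 3.01, 3.09 and 3.18 CPM in coculture and 5.08, 4.51, 5.54 and 5.17 CPM in monoculture (-0.64 ± 0.184; -1.20 with lane as a covariate). The change of its difference from 24 h to 72 h, -0.77 ± 0.271, was called (edgeR adjusted p = 0.0386), and lost with library sizes alone (-0.63, edgeR adjusted p = 0.0791). The call was also lost when any 1 library of those groups was left out (-0.78 to -0.61, edgeR adjusted p = 0.0507 to 0.114), except monoculture 24 h replicate 1, monoculture 72 h replicate 2, coculture 24 h replicates 1 and 2 and coculture 72 h replicate 1.

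The adenine nucleotide translocators SLC25A4, SLC25A5 and SLC25A6, which exchange ATP for ADP, are related in sequence; how reads that match more than 1 of them were counted is not given, and was not examined. SLC25A6, which also overlaps an unnamed gene, was higher in coculture in proliferation (0.34 ± 0.0454) and at 24 h (0.23 ± 0.0454); SLC25A4, the form of muscle and heart, was lower at 72 h (-0.33 ± 0.0502, 105 ± 3.51 CPM against 132 ± 6.37, SD, n = 4). SLC25A5 fell from proliferation to 24 h in both cultures, by 0.58 ± 0.0532 in monoculture and 0.70 ± 0.0537 in coculture. SLC25A20, which brings acylcarnitines into mitochondria for fatty acid oxidation, rose over that interval in both cultures (1.08 ± 0.0697 and 0.72 ± 0.0669) and was higher in coculture in proliferation by 0.42 ± 0.0732. SLC25A22, a glutamate carrier, was higher in proliferation (0.58 ± 0.0673) and lower at 72 h (-0.35 ± 0.0633). At 24 h the ornithine carrier SLC25A15 and SLC25A30, both of which overlap an unnamed gene, were higher (0.35 ± 0.0595 and 0.30 ± 0.0651), and SLC25A37, which carries iron for heme synthesis, was lower (-0.37 ± 0.0608).

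The coculture difference of many members turned over between proliferation and 72 h, 2 comparisons that share no library. Of the 65 members higher in proliferation 35 were lower at 72 h, which is 53.8% of the 65 and 56.5% of the 62 lower at 72 h; over all genes the same shares were 37.7% and 44.9%. Of these 65, 6 were also higher at 72 h (9.23%, beside 18.5% of all genes). Of the 47 lower in proliferation 15 were higher at 72 h (31.9%, beside 34.0% of all genes) and 10 lower (21.3%, beside 17.5%), so this opposite turn was near the share over all genes. From 24 h to 72 h no member called at both times changed side, and few genes did. Of 19 members higher at 24 h 14 were higher at 72 h (73.7%, beside 63.7% of all genes) and 0 lower (beside 7.19%), and of 30 lower at 24 h 24 were lower at 72 h (80.0%, beside 68.2%) and 0 higher (beside 5.34%). The test of the change itself called 52 members upward and 74 downward between proliferation and 72 h, beside 31.3% and 31.0% of all genes (62.3% either way). Between proliferation and 24 h it called 45 upward and 57 downward (24.3% and 26.2% of all genes, 50.5% either way), and between 24 h and 72 h 18 and 22 (12% and 11.7%). With library sizes alone these counts were 72 and 49, 50 and 50, and 32 and 6.

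**Figure D4:**
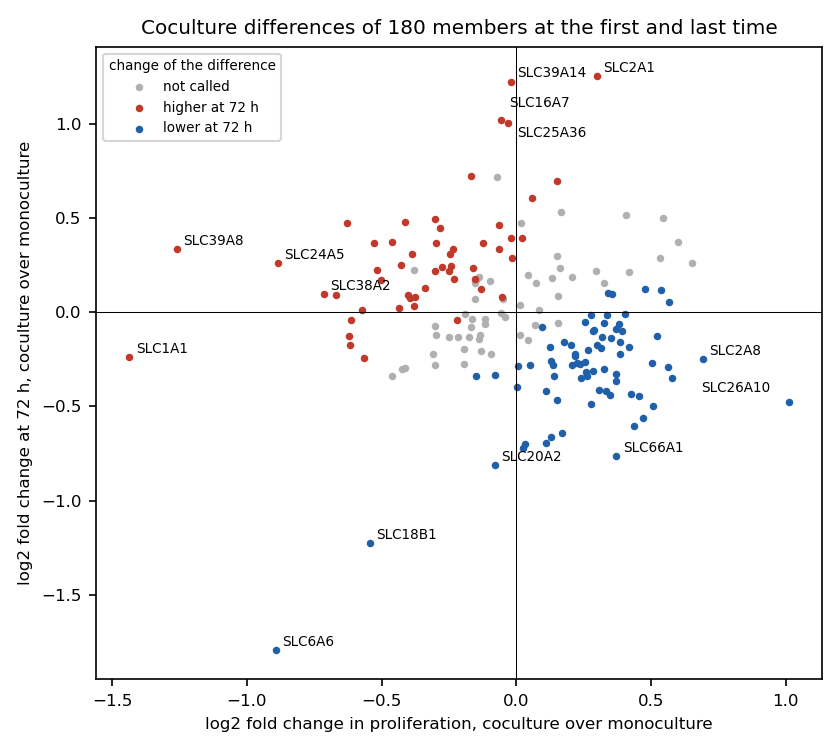
Each point is 1 of the 180 members, with its log2 ratio of coculture to monoculture in proliferation on the x axis and at 72 h on the y axis, coloured by edgeR's call on the change between both times. Members called downward gather at the lower right (higher in proliferation, lower at 72 h), SLC39A14, SLC2A1, SLC16A7 and SLC25A36 stand at the top, and SLC6A6 and SLC18B1 are lower at both times.

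Within each culture the members also changed with time. In monoculture 76 members rose and 53 fell from proliferation to 24 h, beside 34.3% and 34.2% of all genes (68.5% either way), and 57 rose and 32 fell from 24 h to 72 h, beside 27.3% and 26.6%. In coculture 48 rose and 34 fell over the first interval (21.0% and 22.2% of all genes), and 50 rose and 41 fell over the second (24.4% and 23.8%). The libraries of the 2 times did not overlap for 111 and 63 members in monoculture (60.1% and 41.3% of all genes) and 72 and 83 in coculture (39.7% and 46.3%). With library sizes alone 55 rose and 80 fell in monoculture over the first interval and 31 rose and 62 fell over the second; in coculture 26 rose and 55 fell over the first. The largest rise of the first interval in each culture was that of SLC26A10. It went from 2.24, 0.997, 1.27 and 0.882 to 9.74, 8.99, 9.85 and 8.66 CPM in monoculture (2.83 ± 0.192, edgeR adjusted p = 9.15e-14) and from 2.04, 2.67, 2.20 and 3.52 to 7.53, 7.52, 8.36 and 8.01 CPM in coculture (1.57 ± 0.171). The proliferation libraries of the cultures overlapped, and the rise was smaller in coculture by 1.25 ± 0.273 (edgeR adjusted p = 0.000351). The SLC26A10 gene, which spans 6.83 kb, shares 1720 bases with B4GALNT1, and reads within that stretch cannot be told apart.

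Most other changes named here were called in both cultures. SLC9A5 rose to 24 h by 1.83 ± 0.0929 in monoculture and 0.82 ± 0.0909 in coculture, and SLC9A9, an exchanger of endosomes, by 1.01 ± 0.136 and 0.88 ± 0.133. The sulfate carrier SLC26A2 fell by 0.81 ± 0.0849 and 0.65 ± 0.0838 over the same interval, and SLC25A13, which exchanges aspartate for glutamate, by 0.70 ± 0.0720 and 0.62 ± 0.0738. From 24 h to 72 h, after SLC6A6 and SLC1A1, the next rises were SLC25A43 in monoculture (0.90 ± 0.105, beside 0.60 ± 0.103 in coculture) and SLC16A7 in coculture (1.39 ± 0.129, beside 0.82 ± 0.149 in monoculture). SLC25A12, the close relative of SLC25A13, fell over that interval by 0.50 ± 0.0648 in monoculture and 0.23 ± 0.0638 in coculture. The nucleotide sugar carrier SLC35D2 fell in coculture by 0.55 ± 0.131, from 7.77, 6.04, 8.13 and 7.92 to 4.86, 4.41, 5.59 and 5.50 CPM, without overlap. In monoculture its change of -0.17 ± 0.132 was not called.

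The span of the gene on the chromosome moved with these differences. Across the 180 members Spearman's rho between span and the log2 difference was -0.544 in proliferation, 0.214 at 24 h and 0.359 at 72 h, and across all 11937 genes it was -0.251, 0.138 and 0.239. These are descriptions across genes, which share the same libraries and are not independent replicates. Among the 90 members at or under the median span of 29.5 kb, 50 were higher and 10 lower in proliferation, and 11 and 40 at 72 h. Among the 90 longer members 15 were higher and 37 lower in proliferation, and 30 and 22 at 72 h. Its part in the differences, and that of RNA quality, was not tested.

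**Figure D5:**
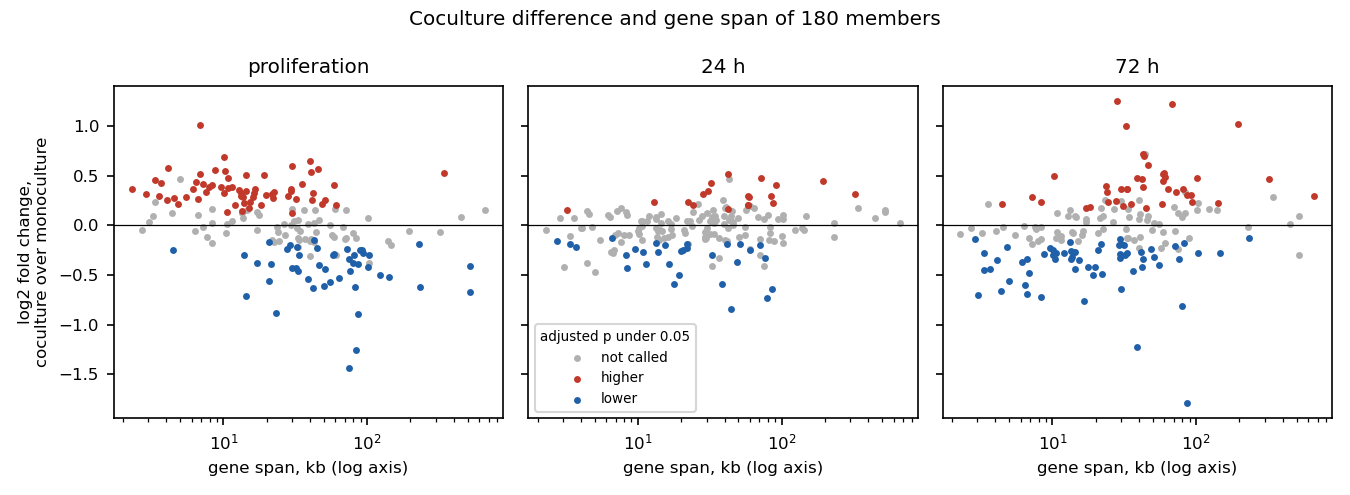
Each point is 1 of the 180 members, placed by the span of its gene in kb (x axis, log scale) and its log2 ratio of coculture to monoculture (y axis), in 1 panel per time, coloured by its edgeR call. In proliferation the members called higher lie mostly at short spans (median 13.4 kb) and those called lower at long ones (median 58 kb), and at 72 h the order is the reverse.

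Transporter genes outside the rule were counted for comparison from lists drawn up by name. Of 46 genes of solute carrier families that go by other symbols 29 were listed, with 9 higher and 9 lower in proliferation, 5 and 6 at 24 h, and 7 and 9 at 72 h. Of 15 partner chains of transporters and subunits of the sodium pump 8 were listed, with 3 higher and 3 lower in proliferation, 0 and 5 at 24 h, and 1 and 6 at 72 h. Over all genes 30.3% were called higher and 28.7% lower in proliferation, 11.5% and 12.2% at 24 h, and 25.1% and 25.4% at 72 h. ATP1B3, a beta subunit of the sodium pump, was lower at all 3 times (-0.48, -0.54 and -0.87), and BSG, the chaperone chain of lactate transporters, was higher in proliferation (0.18) and lower at 24 h (-0.24) and 72 h (-0.22). Both were chosen for mention after their values were seen. In the authors' deposited tables of their own comparisons 63 members were higher and 47 lower in proliferation, 15 and 25 at 24 h, and 38 and 54 at 72 h. Of the calls above, 110, 39 and 92 members were also called there in the same direction, and 0 in the opposite one.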

How the data were processed

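RNA-seq libraries of 24 samples, in 6 groups of 4, came from 400 ng total RNA each (Vazyme VAHTS kit), per the labels' protocols. The deposited file holds gene counts, and the submitters' processing notes name FastQC, STAR, RSEM and DESeq2 without versions, so the counts may be rounded estimates; annotation and strand are not given. The log2 fold changes and p-values in the authors' deposited tables come from their own comparisons and were used only where the text names those tables. Of 36 count columns 24 belong to labelled samples and were used; 12 belong to none. Members are rows matched by gene name.

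Counts were analysed with edgeR 4.0.16 in R 4.3.3: TMM scaling, filterByExpr (0 genes removed), 1 mean per group over 24 libraries (18 residual degrees of freedom), quasi-likelihood F tests of 10 contrasts, Benjamini-Hochberg adjustment over 11937 genes, calls at an adjusted p under 0.05. SE is the fitted log2 change divided by the square root of F. CPM values carry TMM factors; means are given ± SD. Levels of different genes were not compared, since no length was used. Between the counts of replicates of a group, chi-square per degree of freedom was 2.16 to 144 over 36 pairs. This value cannot tell separate cultures from repeated preparations of the same RNA. The method was tested on simulated counts. These had the same spread beyond counting error for all genes and groups, and no effect of lane or ribosomal RNA. That test cannot show whether the calls hold under the uneven spread between replicates seen here.

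The members and the gene lists were chosen with earlier results of these data known. Genes named are, by rule, the 10 largest called differences in each direction between cultures and the 4 largest in each direction in every other contrast, with a mean of 5 CPM or more where higher and, except for changes of the difference, no overlap between groups, plus 12 members always named, 1 of which is not reported here. Members named outside this rule (the other SLC30 members, SLC2A3, SLC25A42, SLC31A1, SLC39A8 and SLC40A1) were chosen after their values were seen. In all, 32 members overlap another listed gene. Sequences were not used here. Alternatives were library sizes alone, upper-quartile factors, DESeq2 1.42.0, other filters, a replicate block, lane as a covariate, lane 6 only, the compared groups alone, the 4 libraries rich in ribosomal RNA left out, and each library left out in turn.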

Additional observations from a re-analysis of the deposited data

Results flagged for a closer look

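For each of the 66 named members with reported values and each group of 4 libraries, 396 sets in all, the gap between the most extreme library and its nearest neighbour was compared with the range of the group, and 20 sets (5.05%) held a library far from the other 3, as chance gives in about 1 of 20. Values are CPM, each with the nearest of the other libraries in brackets. In coculture at 24 h, replicate 3 stood apart in SLC39A3 (high) at 8.88 (nearest 8.26) and SLC9A5 (high) at 22.3 (nearest 19.1). In coculture at 24 h, replicate 4 stood apart in SLC24A5 (low) at 3.20 (nearest 3.84) and SLC18B1 (high) at 12 (nearest 11.1). In monoculture at 24 h, replicate 1 stood apart in SLC29A1 (low) at 184 (nearest 216) and SLC38A1 (low) at 27.6 (nearest 41.9). In monoculture at 24 h, replicate 3 stood apart in SLC39A10 (low) at 13.3 (nearest 14.8) and SLC9A5 (high) at 33.4 (nearest 26.7). In monoculture at 72 h, replicate 3 stood apart in SLC38A2 (high) at 396 (nearest 313) and SLC1A5 (high) at 407 (nearest 341). In coculture at 24 h, replicate 1 stood apart in SLC35F5 (low) at 36.8 (nearest 40.4). In coculture at 72 h, replicate 2 stood apart in SLC31A2 (low) at 6.38 (nearest 7.40). In coculture at 72 h, replicate 3 stood apart in SLC25A22 (low) at 26.3 (nearest 29.9). In coculture in proliferation, replicate 1 stood apart in SLC12A2 (high) at 27.1 (nearest 25). In coculture in proliferation, replicate 3 stood apart in SLC39A11 (high) at 6.69 (nearest 5.25). In coculture in proliferation, replicate 4 stood apart in SLC66A1 (high) at 15.9 (nearest 15.3). In monoculture at 24 h, replicate 2 stood apart in SLC38A2 (low) at 366 (nearest 396). In monoculture at 24 h, replicate 4 stood apart in SLC35B4 (low) at 5.46 (nearest 5.58). In monoculture in proliferation, replicate 1 stood apart in SLC6A6 (low) at 1.86 (nearest 2.44). In monoculture in proliferation, replicate 2 stood apart in SLC39A3 (low) at 6.03 (nearest 6.76). Replicate 3 of monoculture at 72 h, where SLC38A2 and SLC1A5 were high, is 1 of the 4 libraries rich in ribosomal RNA.

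By edgeR's test of the change itself, the coculture difference changed for 102 members from proliferation to 24 h, 40 from 24 h to 72 h and 126 from proliferation to 72 h. These are 56.7%, 22.2% and 70.0% of the members, beside 50.5%, 23.7% and 62.3% of all genes. The 4 largest called changes in each direction are given for each interval, among members that averaged 5 CPM or more in 1 or more of the 4 groups compared, as log2 changes with their SE. Members under that level included larger called upward changes, those of SLC39A8 from proliferation to 24 h (1.19) and to 72 h (1.59) and of SLC25A42 from 24 h to 72 h (1.56). From proliferation to 24 h the largest upward changes above that level were those of SLC36A4 (1.15 ± 0.146), SLC24A5 (0.93 ± 0.229), SLC2A13 (0.80 ± 0.124) and SLC38A2 (0.74 ± 0.0856). Over that interval the largest downward ones above it were those of SLC26A10 (-1.25 ± 0.273), SLC9A5 (-1.01 ± 0.132), SLC2A8 (-0.78 ± 0.111) and SLC66A1 (-0.76 ± 0.0945). From 24 h to 72 h the largest upward changes above that level were those of SLC39A14 (1.14 ± 0.109), SLC2A1 (0.94 ± 0.149), SLC36A1 (0.60 ± 0.145) and SLC25A36 (0.58 ± 0.153). Over that interval the largest downward ones above it were those of SLC6A6 (-1.16 ± 0.264), SLC25A33 (-0.77 ± 0.271), SLC18B1 (-0.64 ± 0.170) and SLC22A17 (-0.47 ± 0.133). From proliferation to 72 h the largest upward changes above that level were those of SLC39A14 (1.24 ± 0.110), SLC1A1 (1.20 ± 0.306), SLC24A5 (1.15 ± 0.254) and SLC36A4 (1.10 ± 0.146). Over that interval the largest downward ones above it were those of SLC26A10 (-1.49 ± 0.280), SLC66A1 (-1.14 ± 0.0947), SLC39A5 (-1.04 ± 0.162) and SLC9A5 (-1.0 ± 0.137). In SLC36A4, SLC9A5 and SLC66A1 the groups stood apart at both ends in opposite order.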

How the results depend on the processing

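Of 2636 values of 146 results on single members under alternative settings, 2554 kept their direction and their side of the threshold, 59 lost the call, 10 gained it and 13 turned direction. Among counts of members, scaling to library sizes alone moved most. With it 66 members were higher and 35 lower at 72 h. The change of the difference from 24 h to 72 h was called upward for 32 and downward for 6, and downward for 49 from proliferation to 72 h. In monoculture 80 fell from proliferation to 24 h, and 31 rose and 62 fell from 24 h to 72 h; in coculture 26 rose and 55 fell from proliferation to 24 h. With lane as a covariate 20 were higher and 35 lower at 72 h, and within lane 6 12 were higher and 15 lower at 24 h. Both settings lean on replicates 1 and 2 of coculture at 24 h, its lane 6 libraries. Of these, replicate 2 was the richest in ribosomal RNA of all libraries. The cause was not tested. No other count left the range of 1.5 times its value.

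Leaving out each library in turn gave 59 to 64 higher and 45 to 48 lower members in proliferation, 13 to 19 and 21 to 29 at 24 h, and 34 to 43 and 57 to 61 at 72 h. The change of the difference was called upward for 37 to 44 and downward for 55 to 61 from proliferation to 24 h, 12 to 20 and 19 to 23 from 24 h to 72 h, and 48 to 54 and 70 to 75 from proliferation to 72 h. In monoculture 69 to 77 rose and 49 to 54 fell over the first interval and 48 to 56 rose and 28 to 34 fell over the second; in coculture 41 to 47 rose and 29 to 31 fell, then 41 to 46 rose and 33 to 41 fell. The 24 h count of higher members was lowest without coculture 24 h replicate 4, and that of upward changes from 24 h to 72 h without coculture 72 h replicate 4.

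Direction turned only in differences that were not called. At 72 h SLC1A5 was at 0.035 with library sizes alone and 0.0074 without the 4 libraries rich in ribosomal RNA. SLC25A5 was at 0.107 with library sizes alone, 0.063 with lane as a covariate and 0.072 without those 4 libraries, and between -0.075 and 0.0062 with 1 library left out. SLC8A1 was at -0.040 without those 4 libraries and between -0.019 and 0.057 with 1 library left out. SLC39A14 in proliferation lay between -0.053 and 0.0048, and SLC38A2 at 24 h between -0.0057 and 0.037, with 1 library left out. The cause of these moves was not tested.

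The replicate numbers did not pair the libraries: correlations of same-numbered deviations ran from -0.14 to 0.12, 1 of 28 pairs exceeded 0.1, and 2 of 24 libraries correlated best with their own number. With the replicate block 65 members were higher and 47 lower in proliferation, 19 and 30 at 24 h, and 40 and 62 at 72 h. Depth limits the members near the bottom of the table: SLC1A1, SLC39A8 and SLC6A6 lay under 3 CPM in every proliferation library.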
